A study of Mus musculus with 6 samples.

Results

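Ttn, the mouse gene for titin, carried 81 of the 34518 noncoding features listed for left atria, and these 81 features are described here along the gene. A feature was taken where it overlapped the annotated Ttn gene on either strand (78 features), or where it overlapped no protein-coding gene and had Ttn as its nearest protein-coding start within 100 kb (3 features). The left atria came from adult mice of the CD1 strain, with 3 libraries from FOG2-overexpressing atria (FOG2_OE) and 3 from wild-type atria (WT). Per the labels, the animals are named DTG and NTG, terms that are not spelled out, and all of them had been kept without doxycycline for 1 week. The promoter that drives the FOG2 transgene and any pooling of animals are not given in the labels. Ribosomal and polyadenylated RNA were removed before sequencing, and the library kit does not mark strand.

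Titin is the giant elastic protein of the sarcomere that spans from the Z-disc to the M-band of striated muscle. Its I-band part acts as a molecular spring, its A-band part binds the thick filament, and alternative splicing of the I-band exons gives hearts a shorter and stiffer or a longer and more compliant form. RBM20, a splicing factor of heart muscle, is known to repress inclusion of many of these I-band exons. FOG2, the product of Zfpm2, is a zinc-finger cofactor of GATA transcription factors in the heart. In bulk tissue, fewer cells of a type and less RNA per cell cannot be told apart.

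The 6 sample columns of the deposited table hold fitted values of the authors' model, so replicates of a group differ by library size only and the columns hold no spread between animals. Levels are therefore given as fitted CPM (fitted counts scaled to a common effective library size) of each group, with no replicate error, and differences are judged by the test in the authors' deposited table. The SEs called implied throughout are not entries of that table but were computed here, as described under the processing. The effective library sizes lay between 72430116 and 84867256 in FOG2_OE and between 71146937 and 82212532 in WT, and the listed features made up 5.25% of them in FOG2_OE and 4.43% in WT. The feature over Zfpm2 with the highest FOG2_OE level, MSTRG.29831, was at 417 CPM in FOG2_OE against 0.484 CPM in WT. All 6 atrial marker genes had listed features, 51 in all and summing to 17.7 CPM in FOG2_OE against 43.4 CPM in WT. Of these, 15 were lower and none was higher in FOG2_OE by the authors' deposited table, where 4.65% of all features were lower and 1.16% higher. All 15 belong to Myl7, Sln and Kcnj3, while Kcna5, with 22 of the 51 features, summed to 2.30 CPM in FOG2_OE against 1.25 CPM in WT, and the sums of Myl4 and Nppa were also above those of WT. With the median feature centred at no change 11 were lower and 1 higher (3.47% and 1.62% of all features). Under F with 10 residual degrees of freedom 5 were lower (1.07% of all features). With 4 residual degrees of freedom 0 of all 34518 features were called, so that setting cannot set the atrial markers apart. The fibroblast markers had 30 features (13.6 CPM in FOG2_OE against 13.4 CPM in WT) and the endothelial markers 12 (1.50 CPM in FOG2_OE against 1.16 CPM in WT), with none called. Of the other fixed markers, Myh7 and Ckm had 3 features each with none called, and Myl2, Irx4, Ptprc, Hbb-bs, Hba-a1, Myh4, Myh1 and Actn3 had none. Whether the atrial marker level bears on the Ttn features was not tested.

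Ttn lies on the minus strand of chromosome 2 (mm10) between bases 76703980 and 76982547, a length of 279 kb, and has 25 transcripts in GENCODE M21. The transcript with the most exons, Ttn-203, has 347 exons, against 192 in Ttn-201. The shorter form lacks 155 of the Ttn-203 exons, and 154 of these are consecutive, begin at exon 48 and fill 87.4 kb from 76.3 to 163.7 kb downstream of the start. This run is called the middle block below, and the rest of the gene the 5' part and the 3' part. The division was made after the values had been seen, so no test was run between the stretches.

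Shown here are the sequences at or under the features that passed the test. The first is the window around the Ttn start (RefSeq, GRCm38.p6, chr2:76982498-76982797, minus strand), which touches the called upstream feature MSTRG.47636 and the gene-body feature nearest the start, MSTRG.47635. The capitals mark a MEF2-type motif, a GATA and a TATAA, beginning 166, 126 and 28 bases before the start.
Ttn promoter: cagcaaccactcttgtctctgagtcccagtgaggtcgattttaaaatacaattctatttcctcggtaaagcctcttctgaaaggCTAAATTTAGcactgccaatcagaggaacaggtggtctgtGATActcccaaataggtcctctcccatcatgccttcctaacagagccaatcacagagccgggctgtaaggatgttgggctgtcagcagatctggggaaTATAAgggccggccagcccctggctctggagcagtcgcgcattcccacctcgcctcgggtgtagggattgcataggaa
The others are the Ttn-203 exons (GENCODE M21, mm10, given as the mRNA reads) that hold the called features of the middle block, exon 61 (chr2:76896699-76896980) and exon 76 (chr2:76888886-76889173), with the bases covered by the listed feature in capitals.
Exon 61, MSTRG.47603: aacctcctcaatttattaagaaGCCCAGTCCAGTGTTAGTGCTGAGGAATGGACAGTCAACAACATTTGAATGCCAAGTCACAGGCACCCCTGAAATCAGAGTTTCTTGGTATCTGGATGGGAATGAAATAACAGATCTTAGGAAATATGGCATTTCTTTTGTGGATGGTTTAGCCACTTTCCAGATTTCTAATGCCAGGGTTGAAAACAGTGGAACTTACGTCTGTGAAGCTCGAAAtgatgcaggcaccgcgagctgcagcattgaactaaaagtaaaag
Exon 76, MSTRG.47600: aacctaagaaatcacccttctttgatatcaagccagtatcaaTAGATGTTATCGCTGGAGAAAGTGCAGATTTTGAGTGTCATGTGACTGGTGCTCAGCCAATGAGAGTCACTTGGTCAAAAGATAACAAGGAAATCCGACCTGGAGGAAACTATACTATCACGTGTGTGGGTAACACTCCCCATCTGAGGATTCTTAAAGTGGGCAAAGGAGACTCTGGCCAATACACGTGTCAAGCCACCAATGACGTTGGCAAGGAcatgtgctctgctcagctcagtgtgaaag
MSTRG.47603 covered 216 of the 282 bases of exon 61 and MSTRG.47600 covered 217 of the 288 bases of exon 76, so both features lay wholly inside a single exon. No stretch of 50 bases of either feature recurred elsewhere in Ttn-203 or in a transcript of another gene. The motif letters were chosen after the window had been read and both strands were searched. Of 32851 promoter windows of the same length, 57.9% held GATA, 24.9% TATAA and 0.557% the MEF2-type motif. The longer GATA-factor consensus, WGATAR by name, was not in the Ttn window (29.8% of windows held it), nor was AGGTGT, the core of a TBX5 site (13.7% of windows). MSTRG.47636 shared 6 bases with the window and MSTRG.47635 shared 36, at its opposite ends, so the marked motifs lie in neither feature.

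All 78 features inside the gene were listed on the plus strand, opposite to Ttn, and none on the strand of Ttn. Of the 81 features, 76 overlapped a Ttn exon, 71 lay over exons for at least 50% of their length, and 31 for more than 99%. The median exon share of the 78 features inside the gene was 92.2%. Only 2 features, MSTRG.47587 and MSTRG.47590, lay wholly within introns. Because the kit does not mark strand, reads of Ttn RNA and reads of an antisense RNA cannot be told apart in these features, and the listed strand is the table's own entry. A further 3659 listed features (10.6% of all), away from Ttn, lay likewise at least 50% over exons of a gene listed on the other strand. An annotated antisense long noncoding RNA, Gm13938, spans bases 76722776 to 76786708 with 5 exons. Its span overlapped 22 of the features, but only 3 touched one of its exons.

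The features were mostly short, with a median span of 290 bases and a range of 106 to 49728 bases. The longest, MSTRG.47572, ran as far as exon 286 of Ttn-203 and enclosed 12 other features, and how reads in the shared stretches were assigned is not given in the sources used here. Without it, features met 120 of the 347 exons, made up of 24 of the 154 exons in the middle block and 96 of the 193 outside it. Again without MSTRG.47572, which reaches into it, the largest gap between features was 37178 bases, mostly in the middle block, and held 75 Ttn-203 exons. Features thus met a smaller share of the exons inside the block than outside it.

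The 81 features covered a wide range of levels, between 0.0170 and 7.89 CPM in FOG2_OE (median 0.261) and between 0.0130 and 11.5 CPM in WT (median 0.320). None was at 0 in either group, 62 had a mean fitted count of at least 10 per library, and 39 (48.1%) were under 20, where the table as a whole had 76.3% under 20. Together they summed to 51.8 CPM in FOG2_OE against 65.9 CPM in WT, a ratio of 0.787 with a 95% counting interval of 0.768 to 0.806. Counting intervals here leave out the spread between animals and any reads shared between features. They made up 0.0988% of the listed signal in FOG2_OE and 0.149% in WT.

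**Figure D1:**
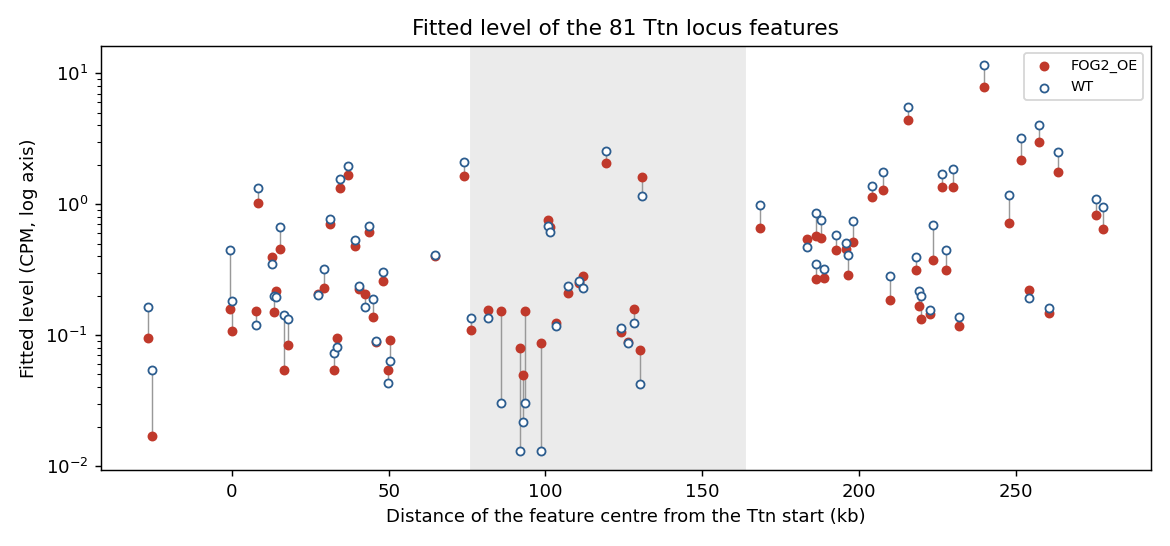
Fitted level in CPM (log axis) of each of the 81 features against the distance of its centre from the Ttn start in kb, FOG2_OE as filled points and WT as open points joined by a line, with the middle block shaded. The highest level is MSTRG.47560 at 7.89 CPM in FOG2_OE against 11.5 CPM in WT, and the lowest WT levels sit inside the middle block.

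Of the 81 features, the authors' deposited table had 2 higher and 1 lower in FOG2_OE past its adjusted p threshold of 0.05. Over all 34518 features 1.16% were called higher and 4.65% lower, so neither count sets the Ttn features apart from the rest of the table. With the median feature centred at no change, a scale on which 1.62% of all features were higher and 3.47% lower, 2 were higher and 0 lower. By unadjusted p-values under 0.05 of the authors' deposited table, 4 were higher and 1 was lower, where 4.52% of all features were higher and 12.5% lower. In direction alone, 24 features had a log2 fold change above 0 and 57 below. The median log2 fold change was -0.24, beside -0.21 over all features, so the locus as a whole differed from the table's own midpoint by -0.03.

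Both features called higher lay in the middle block, over I-band exons that Ttn-201 lacks. MSTRG.47600, over exon 76, had fitted counts of 12.2, 11.1 and 13.0 in the FOG2_OE libraries, against 2.15, 2.36 and 2.48 in the WT libraries. The log2 fold change by the authors' deposited table was 2.28, its implied SE 0.75 and its adjusted p 0.0241. MSTRG.47603, over exon 61, had fitted counts of 12.1, 11.0 and 12.9 in FOG2_OE, against 2.15, 2.36 and 2.48 in WT. By the authors' deposited table it differed by a log2 fold change of 2.28, its implied SE being 0.80 and its adjusted p 0.0418. The fitted values of the groups do not overlap for either feature, which follows from their construction and is no measure of spread. Both rest on few reads, with 36.3 and 36.1 fitted counts summed over FOG2_OE and 6.99 for each feature over WT. Neither was called when the authors' likelihood ratio was judged by F with 10 residual degrees of freedom (adjusted p 0.192 and 0.226), a rule that called 0.203% of all features higher and 1.07% lower. A minimum of 10 fitted counts, under which 1.72% of 13643 features were higher and 6.91% lower, leaves both untested.

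The feature called lower lay just upstream of the gene. MSTRG.47636 (chromosome 2, bases 76982792 to 76983323) begins 0.245 kb before the Ttn start and was listed on the plus strand, divergent from Ttn. It had fitted counts of 12.5, 11.4 and 13.3 in FOG2_OE libraries, against 31.9, 35.1 and 36.8 in WT libraries, or 0.157 CPM in FOG2_OE against 0.448 CPM in WT. By the authors' deposited table the log2 fold change was -1.50, its implied SE 0.48 and its adjusted p 0.0345. The call was lost when the median feature was centred at no change (adjusted p 0.0994) and under F with 10 residual degrees of freedom (adjusted p 0.213). It stayed when the authors' likelihood ratio test was adjusted over only the features of at least 10 fitted counts (adjusted p 0.0241).

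The other upstream features were low in both groups and did not pass the test. MSTRG.46949, 26.5 kb from the start and the farthest taken, was at 0.0956 CPM in FOG2_OE against 0.164 CPM in WT (by the authors' deposited table, log2 fold change -0.77, implied SE 0.61, adjusted p 0.566). MSTRG.46948, 25.3 kb from the start, was at 0.0170 CPM in FOG2_OE against 0.0541 CPM in WT. Both were listed on the strand of Ttn. The 3 upstream features summed to 0.270 CPM in FOG2_OE against 0.666 CPM in WT, a ratio of 0.405 (counting interval 0.299 to 0.547). Most of each sum came from the called MSTRG.47636, at 0.157 CPM in FOG2_OE against 0.448 CPM in WT. On the inner side of the start, MSTRG.47635 overlaps exon 1 and ends 0.014 kb inside the gene. It stood at 0.107 CPM in FOG2_OE against 0.183 CPM in WT (by the authors' deposited table, log2 fold change -0.76, implied SE 0.65, adjusted p 0.60).

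Summed by stretch, the gene showed different ratios along its length. The 28 features of the 5' part, over the first exons of titin, summed to 11.2 CPM in FOG2_OE against 13.2 CPM in WT, a ratio of 0.850 (counting interval 0.807 to 0.896). The 18 features of the middle block summed to 7.07 CPM in FOG2_OE against 6.43 CPM in WT, a ratio of 1.10 (1.03 to 1.18). The 32 features of the 3' part summed to 33.3 CPM in FOG2_OE against 45.6 CPM in WT, a ratio of 0.730 (0.709 to 0.751). The middle block thus held 13.6% of the locus sum in FOG2_OE and 9.75% in WT, while the 3' part held 64.1% in FOG2_OE and 69.2% in WT. With the median feature centred at no change the ratios were 0.987 for the 5' part, 1.28 for the middle block and 0.847 for the 3' part.

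**Figure D2:**
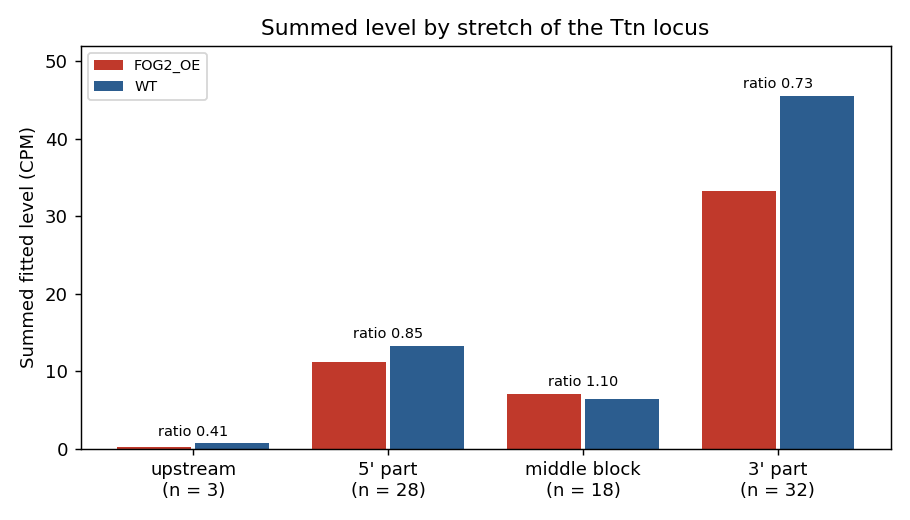
Summed fitted level in CPM of the features of each stretch, FOG2_OE left of WT, with the number of features under each pair and the ratio of FOG2_OE to WT above it. The middle block has the only ratio above 1 (1.10) and the 3' part holds most of the signal, 33.3 CPM in FOG2_OE against 45.6 CPM in WT.

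The signs of the single features were also counted by stretch, and since these features make up the sums, the counts are no separate evidence. In the middle block 14 of 18 features had a log2 fold change above 0 (median 0.25), in the 5' part 8 of 28 (median -0.18) and in the 3' part 2 of 32 (median -0.44). Relative to the median of all features, 17 of the 18 middle-block features, 15 of the 28 in the 5' part and 5 of the 32 in the 3' part lay above it. The median of the 5' part changes sign on that scale, to 0.03, whereas those of the middle block (0.46) and the 3' part (-0.23) keep theirs. Neighbouring features may derive from the same RNA molecules, so these counts are not counts of independent observations.

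**Figure D3:**
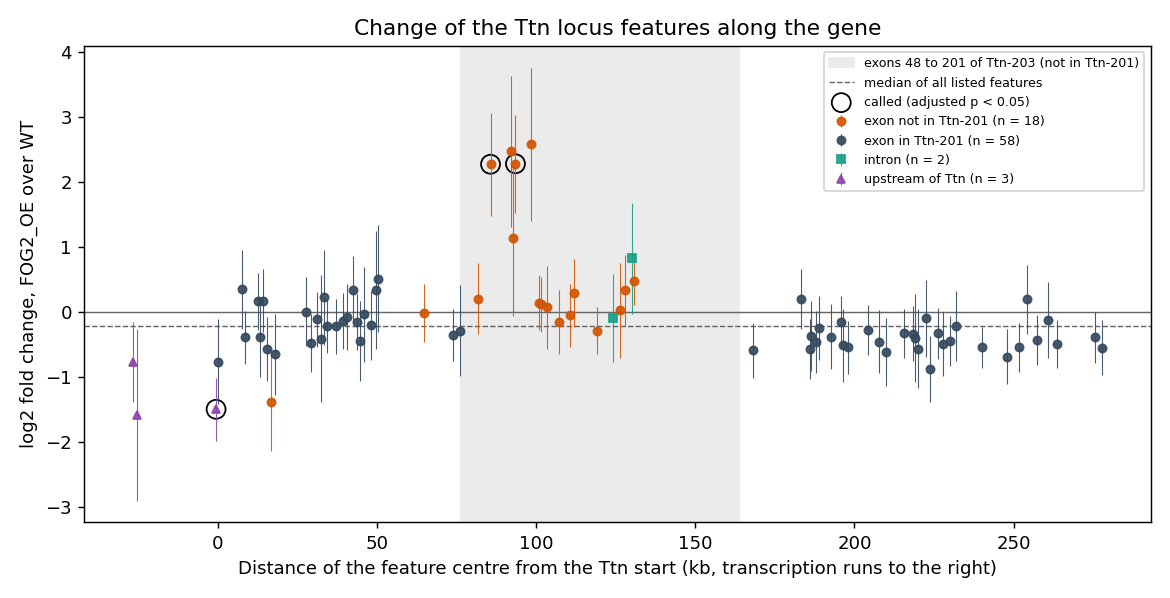
Log2 fold change of FOG2_OE over WT in the authors' deposited table for each of the 81 features, with the implied SE as bars, against the distance of the feature centre from the Ttn start in kb. Colours give the kind of exon, circles mark the 3 called features, the shading is the middle block and the dashed line is the median of all listed features at -0.21. Features over the block lie mostly above 0 and those downstream of it mostly below.

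Grouped by exon rather than by position, 58 features over exons that Ttn-201 shares summed to 44.0 CPM in FOG2_OE against 58.3 CPM in WT (ratio 0.756, median log2 fold change -0.36). The 18 features over exons that Ttn-201 lacks summed to 7.35 CPM in FOG2_OE against 6.82 CPM in WT (ratio 1.08, median 0.17). Of these 18, 16 are in the middle block and 2 in the 5' part. MSTRG.47628, over exon 11 of Ttn-203, was at 0.0540 CPM in FOG2_OE against 0.143 CPM in WT (by the authors' deposited table, log2 fold change -1.38, implied SE 0.76). MSTRG.47609, over an exon annotated only in Ttn-202, was at 0.404 CPM in FOG2_OE against 0.407 CPM in WT (by the authors' deposited table, log2 fold change -0.01). Its likelihood ratio was under 0.1, so its implied SE of 0.45 rests on the median dispersion at similar abundance. Neither ran above 0 in the table, but relative to the median of all features MSTRG.47609 was at 0.20 on the log2 scale. The intronic MSTRG.47587 was at 0.0763 CPM in FOG2_OE against 0.0424 CPM in WT, and MSTRG.47590 was at 0.105 CPM in FOG2_OE against 0.112 CPM in WT. On the log2 scale relative to the median of all features MSTRG.47590 was at 0.12.

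Within the middle block the larger ratios were gathered in 5 adjacent features with no other between them, 85.7 to 98.5 kb from the start, picked out here because their log2 fold changes exceed 1. They are the called MSTRG.47603 and MSTRG.47600, MSTRG.47602 over exon 72, MSTRG.47601 over exon 74 and MSTRG.47598 over exon 86. MSTRG.47602 was at 0.0797 CPM in FOG2_OE against 0.0130 CPM in WT (by the authors' deposited table, log2 fold change 2.47, adjusted p 0.168), a ratio of 6.12 with a counting interval of 1.82 to 32.7. MSTRG.47598 was at 0.0862 CPM in FOG2_OE against 0.0130 CPM in WT (by the authors' deposited table, log2 fold change 2.59, adjusted p 0.149), a ratio of 6.62 with a counting interval of 1.93 to 34.3. MSTRG.47601 was at 0.0496 CPM in FOG2_OE against 0.0218 CPM in WT (by the authors' deposited table, log2 fold change 1.13, adjusted p 0.674). Its ratio was 2.28 with a counting interval of 0.770 to 8.50. Because the 5 were picked by their log2 fold changes, these intervals cannot serve as tests of them. All 5 are scarce, with mean fitted counts of 2.80 to 7.21 per library and implied SEs of 0.75 to 1.20. Their sum was 0.521 CPM in FOG2_OE against 0.108 CPM in WT. The other 13 features of the block summed to 6.55 CPM in FOG2_OE against 6.32 CPM in WT, a ratio of 1.04 (counting interval 0.965 to 1.12), with a median log2 fold change of 0.12.

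The more abundant block features did not pass the test in either direction. MSTRG.47591, 125 bases within exon 112, had 165, 150 and 176 fitted counts in FOG2_OE, against 180, 198 and 208 in WT. Its log2 fold change was -0.29 (by the authors' deposited table, implied SE 0.36, adjusted p 0.752), and without it the ratio of the block was 1.28. MSTRG.47586, over exon 133, had 129, 117 and 137 fitted counts in FOG2_OE, against 82.1, 90.5 and 94.9 in WT. Its log2 fold change of 0.48 (by the authors' deposited table, implied SE 0.37, adjusted p 0.557) was the largest above 0 among locus features with at least 10 fitted counts per library. The most abundant features of the block thus ran in opposite directions, and neither passed the test.

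**Figure D4:**
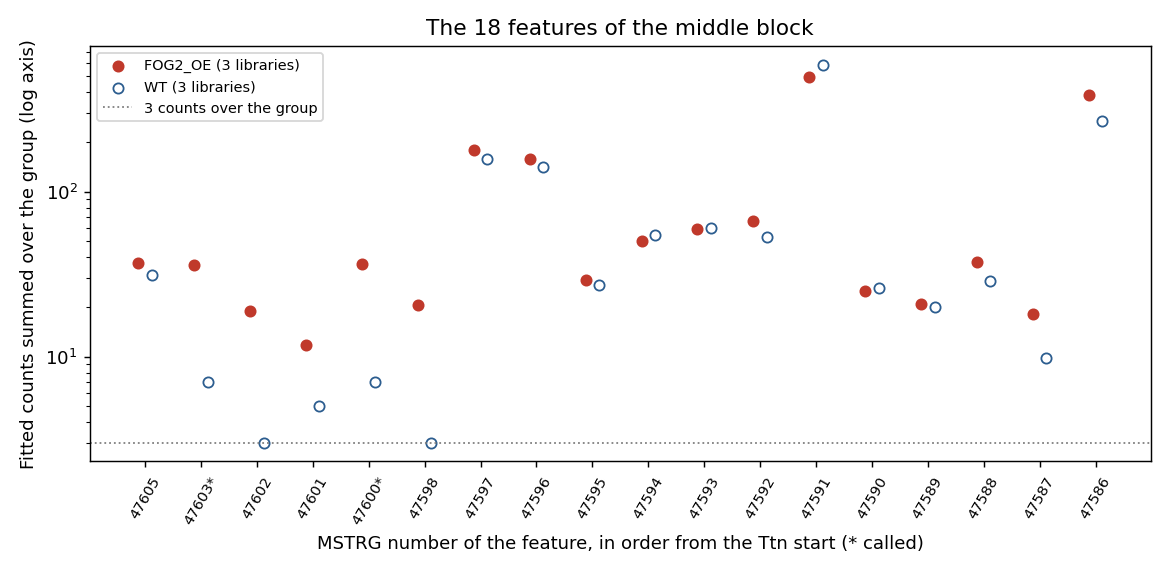
Fitted counts summed over the 3 libraries of each group (log axis) for the 18 features of the middle block in order from the Ttn start, FOG2_OE as filled points left of WT as open points. Asterisks mark the called features and the dotted line marks 3 counts over a group, which MSTRG.47602 and MSTRG.47598 reach in WT.

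The 3' part held most of the abundant features, which lie over exons of A-band titin and had lower fitted levels in FOG2_OE without passing the test. MSTRG.47560 covers 13101 bases, almost all within exon 309 of Ttn-203, the largest exon of the gene at 17106 bases. It had 628, 571 and 669 fitted counts in FOG2_OE, against 819, 902 and 947 in WT. Its log2 fold change was -0.55 (by the authors' deposited table, implied SE 0.32, adjusted p 0.380), and without it the ratio of the locus was 0.808. MSTRG.47570, within exon 287, was at 4.41 CPM in FOG2_OE against 5.55 CPM in WT (by the authors' deposited table, log2 fold change -0.33, implied SE 0.37). MSTRG.47558 was at 2.19 CPM in FOG2_OE against 3.19 CPM in WT, and both it (-0.54) and MSTRG.47556 (-0.43) had negative log2 fold changes by the authors' deposited table. MSTRG.47553, MSTRG.47562 and MSTRG.47574 were at -0.50, -0.45 and -0.46 on the log2 scale of the authors' deposited table.

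These 7 features thus lay within a narrow range of folds although their levels differed. The lowest log2 fold change of the 3' part was that of MSTRG.47565, over exons 297 to 299, at 0.377 CPM in FOG2_OE against 0.698 CPM in WT (by the authors' deposited table, log2 fold change -0.88, implied SE 0.51, adjusted p 0.378). The last feature inside the gene, MSTRG.47550 over exon 347, was at 0.651 CPM in FOG2_OE against 0.954 CPM in WT (by the authors' deposited table, log2 fold change -0.55, implied SE 0.42). The enclosing MSTRG.47572 was at 0.271 CPM in FOG2_OE against 0.321 CPM in WT.

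In the 5' part the most abundant features were MSTRG.47607 and MSTRG.47619. MSTRG.47607, over exon 46 of Ttn-203 near the border of the block, was at 1.65 CPM in FOG2_OE against 2.11 CPM in WT (by the authors' deposited table, log2 fold change -0.35, implied SE 0.40, adjusted p 0.721). MSTRG.47619 was at 1.67 CPM in FOG2_OE against 1.94 CPM in WT (by the authors' deposited table, log2 fold change -0.22, implied SE 0.43). A few 5' features ran the other way without passing the test. MSTRG.47634, over exon 4, was at 0.153 CPM in FOG2_OE against 0.119 CPM in WT (by the authors' deposited table, log2 fold change 0.35, adjusted p 0.834). MSTRG.47616, over exon 34, was at 0.207 CPM in FOG2_OE against 0.163 CPM in WT (by the authors' deposited table, log2 fold change 0.34, adjusted p 0.806).

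Per kb of span the order of levels was different. MSTRG.47591 led with 16.6 CPM per kb in FOG2_OE and 20.2 in WT, followed by MSTRG.47574 with 8.39 in FOG2_OE and 11.5 in WT and MSTRG.47586 with 7.95 in FOG2_OE and 5.69 in WT. The largest feature by level, MSTRG.47560, came to 0.602 CPM per kb in FOG2_OE and 0.879 in WT. All 3 leaders are under 210 bases long. The called MSTRG.47600 came to 0.705 CPM per kb in FOG2_OE and 0.139 in WT.

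Beyond the gene, features that the rule left out lay close by. MSTRG.46947, 702 bases past the Ttn end, has Plekha3 as its nearest start and was at 1.23 CPM in FOG2_OE against 1.59 CPM in WT (by the authors' deposited table, log2 fold change -0.37). Upstream, MSTRG.46954 has Ttn as nearest start at 56.4 kb but overlaps Ccdc141, and was at 0.306 CPM in FOG2_OE against 0.462 CPM in WT (by the authors' deposited table, log2 fold change -0.59). Both ran below 0, like most features of the 3' part and all of the upstream ones.

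Across the table, Ttn had the second largest number of features of 8798 genes, after Hdac9 with 97, and ranked 48th by summed WT level. Among the 100 genes with at least 20 features, 44 had a lower ratio of summed levels. The genes nearest to Ttn in the summed log2 levels of the 2 groups were Zmynd11 with 20 features (55.5 CPM in FOG2_OE against 83.6 CPM in WT), Prl2c3 with 30 (46.1 CPM in FOG2_OE against 51.1 CPM in WT) and Ctnna1 with 27 (94.6 CPM in FOG2_OE against 94.0 CPM in WT). Their distances from Ttn were 0.36, 0.40 and 1.01 on the log2 scale. The 3659 features elsewhere that lie over exons of a gene on the other strand had a median log2 fold change of -0.08, and the authors' deposited table called 0.574% of them higher and 1.80% lower. The 71 Ttn features of that kind had a median of -0.28.

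Genes of the sarcomere and known titin partners were taken from a list of 50, of which 41 had features, 181 in all. Of the 181, by the authors' deposited table, 1 was higher (0.552%) and 11 were lower (6.08%) in FOG2_OE, beside the 1.16% and 4.65% of the whole table. With the median feature centred at no change, 2 were higher and 6 lower, beside 1.62% and 3.47% of the whole table on that scale. The median log2 fold change of the 181 was -0.10. Myl7 and Myl4 are in this list and also among the atrial markers, so the 3 lower features of Myl7 count in both. The feature that rose, MSTRG.1017 near Fhl2, which codes for a LIM protein that binds titin, was at 0.105 CPM in FOG2_OE and listed at 0 in WT. That is at least 8.13-fold higher, taking 3 counts over the WT group as the floor, and the authors' deposited table gave an adjusted p of 0.00043. Among the lower features with the smallest p were MSTRG.11505 and MSTRG.11504 near Myl7, the atrial regulatory light chain. MSTRG.11505 was at 0.0795 CPM in FOG2_OE against 3.65 CPM in WT, and MSTRG.11504 was at 0.0168 CPM in FOG2_OE against 0.642 CPM in WT. The 10 features of Rbm20, the titin splicing factor, summed to 1.15 CPM in FOG2_OE against 1.65 CPM in WT, with a median log2 fold change of -0.52 and none called in the authors' deposited table. Rbm20 falls outside the rule by which features of the list were named. Whether its noncoding features follow its mRNA, or bear on the Ttn features, was not tested.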

How the data were processed

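Per the submitters' processing notes, STAR, HTSeq (version 0.6.0), edgeR, deepTools and the mm10 build were used, with no roles given. The authors' deposited table holds 34518 features with log2 fold changes, log2 CPM, a likelihood ratio score, p-values and adjusted p-values. Its 6 sample columns, deposited as a signal per library, are constant multiples within each group (largest relative spread 1.8e-14) and were read as fitted values. The planned count tests could therefore not be run, and the authors' test was kept. The labels do not say whether replicates were separate animals, so p-values measure only the spread between these libraries.

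Features were placed on GENCODE M21 with Python 3.11.15 (pandas 2.3.3, numpy 2.4.6, scipy 1.17.1). Effective library sizes came from 718 features over 300 fitted counts for the ratio between groups and from the 152 of them with a log2 fold change within 0.1 of 0 for the absolute size, and CPM scales the fitted counts by that size. The negative binomial dispersion that returns each deposited likelihood ratio from the fitted values was solved where that ratio was at least 0.1, was set to the median at similar abundance elsewhere, and gave the implied SE. Counting intervals are 95% and exact for summed fitted counts, and floors are 3 counts.

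Named were the called features, the 10 most abundant, the 3 largest log2 fold changes each way at 10 or more fitted counts, and those nearest the gene's ends. For the sarcomere list the 3 called features with the smallest p each way were named, except for 1 result that is not reported here. Other features were chosen after their values were seen. Members, lists and stretches were chosen with earlier results of these data known. Alternatives were a centred scale, F references, a filter, narrower membership and left-out features.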

Additional observations from a re-analysis of the deposited data

How the results depend on the processing

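The F references and the filter leave every log2 fold change of the authors' deposited table as it is, so of the test settings only centring could change a sign. The 20 features named by the rule kept their signs when centred. Over all 81 features the number above 0 went from 24 to 37 on centring. MSTRG.47609 and MSTRG.47590 were among those that crossed, to 0.20 and 0.12. Referring the authors' likelihood ratio to F with 10 residual degrees of freedom left 0 Ttn features called in either direction, and 0 sarcomere features higher and 4 lower. That rule called 0.203% of all features higher and 1.07% lower. With 4 residual degrees of freedom 0 of all 34518 features were called, so that setting cannot set either group of features apart. By unadjusted p-values under 0.05 of the authors' deposited table, 4 Ttn features were higher and 1 was lower. Of all features, 4.52% were higher and 12.5% lower by that measure. With the median ratio of all features centred at 1, 0 Ttn features were lower and the sarcomere list had 2 higher and 6 lower. On that scale 1.62% of all features were higher and 3.47% lower. Testing only features of at least 10 fitted counts left 0 Ttn features and 0 sarcomere features higher, where 1.72% of 13643 features were higher. MSTRG.47600 and MSTRG.47603 fall below that minimum, with mean fitted counts of 7.21 and 7.18, and were not tested there. MSTRG.47636 and 11 sarcomere features stayed lower under the filter, where 6.91% of 13643 features were lower. The gene body alone left 0 Ttn features lower, since MSTRG.47636 lies outside it. The ratio of summed Ttn levels was 0.913 centred and 0.808 without the most abundant feature. Centred ratios were 0.987 for the 5' part, 1.28 for the middle block and 0.847 for the 3' part, and the middle block without its most abundant feature, an alternative chosen after seeing the data like those by stretch, gave 1.28. Elsewhere the cause was not tested.

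No paired analysis was possible because the sample columns are fitted values without replicate spread; edgeR, DESeq2, other count normalizations and leaving out replicates were not run for the same reason. Low counts limit single features most.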
